A study of Mus musculus with 15 samples.

Results

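The lipid efflux and storage genes described here, followed in microglia after a single dose of a TREM2 antibody, were Apoe, Lpl, Abca1, Abcg1, Nr1h3, Nr1h2, Plin2, Ch25h, Soat1 and Mylip. They were a listed set, chosen by name with earlier results of these data known. They made up 10 of the 32372 genes in the count matrix. All 10 passed the filter on low counts, which left 14260 genes for testing. The single-cell RNA sequencing data came from 15 male hTfR KI mice on a C57BL/6J background, aged 3.5 months, in which the apical domain of the mouse transferrin receptor (TfR) had been humanised. All mice, controls included, carried this allele. A single dose of 10 mg/kg was given, either of ATV:4D9, an antibody to mouse TREM2 whose Fc also binds TfR and so can be carried across the blood-brain barrier, or of ATV:RSV, the control antibody. There were 5 groups of 3 mice: ATV:RSV at day 1 after dosing, and ATV:4D9 at days 1, 7, 14 and 28. The 3 ATV:RSV mice were the only controls analysed. Every comparison with them therefore shared these mice, and days 7, 14 and 28 had no control of the same day. Cells were enriched from cortex and hippocampus with CD45 beads, so immune cells other than microglia could be present.

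Microglia take up lipid from myelin, lipoproteins and dead cells, and hand cholesterol on to apolipoprotein E or store it as ester in lipid droplets. Oxysterols, the oxidised cholesterol derivatives that build up when a cell holds much cholesterol, activate the nuclear receptors LXRα (Nr1h3) and LXRβ (Nr1h2), whose known targets include Apoe, Lpl, Abca1, Abcg1 and Mylip. TREM2 is a lipid-sensing receptor of microglia, and raised Apoe and Lpl are known features of microglia that surround amyloid plaques or clear myelin.

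The matrix held 102043 cells and 707518630 unique molecular identifiers (UMIs, each a tag for 1 captured RNA molecule), with 5667 to 7596 cells and 32341960 to 70307384 UMIs per mouse. Cells of the ATV:4D9 day 1 mice were deeper, with a median of 8201.5 to 8995.5 UMIs per cell against 4975 to 5750 in ATV:RSV. All 8 microglia markers checked passed the filter on low counts. Their summed level was 14568 to 16171 CPM (UMIs of a gene per 1000000 UMIs of the mouse, with TMM scaling of the totals) at ATV:4D9 day 1 against 18585 to 19930 in ATV:RSV. Of all cells, 842 (0.825%) carried at least 3 markers of 1 other cell type, and 453 of these were marked as border-associated macrophages (Mrc1, Pf4, Cd163, Lyve1, F13a1, Cbr2 and Ms4a7). Any 2 libraries shared 5 to 27 cell barcodes, and 1283 of the 100747 different barcodes occurred in more than 1 library. For sums over all cells of a mouse, fewer cells of a type and less RNA per cell cannot be told apart.

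On mm10, with the GENCODE M21 gene models, the 10 genes lay on 8 chromosomes and all were annotated as protein coding. Apoe spanned chr7:19696109-19699188 on the minus strand, Lpl chr8:68880491-68907448 on the plus strand, Abca1 chr4:53030787-53159895 on the minus strand, Abcg1 chr17:31057675-31117988 on the plus strand and Ch25h chr19:34473778-34475164 on the minus strand. Nr1h3 (chr2:91184061-91202834), Nr1h2 (chr7:44549616-44553951), Plin2 (chr4:86648386-86670060) and Soat1 (chr1:156424525-156474331) lay on the minus strand, and Mylip (chr13:45389742-45412022) lay on the plus strand. RefSeq promoter windows were found for 8 of the 10 genes, those without an entry being Lpl and Abcg1. The 250 bases before the start site are shown for the 3 genes whose courses differed most in kind: Apoe, which was high at day 7, the efflux gene Abca1, which was low at day 1, and the oxysterol enzyme gene Ch25h, which was high at day 1. Sequences are from RefSeq, build GRCm38.p6, on the minus strand at chr7:19699189-19699438 (Apoe), chr4:53159896-53160145 (Abca1) and chr19:34475149-34475398 (Ch25h), and capitals mark the motif matches described after them.
Apoe: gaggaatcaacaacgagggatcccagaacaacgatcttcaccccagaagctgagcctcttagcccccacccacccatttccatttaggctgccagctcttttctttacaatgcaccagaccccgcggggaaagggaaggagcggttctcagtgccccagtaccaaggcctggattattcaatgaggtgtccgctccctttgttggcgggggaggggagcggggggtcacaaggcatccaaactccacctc
Abca1: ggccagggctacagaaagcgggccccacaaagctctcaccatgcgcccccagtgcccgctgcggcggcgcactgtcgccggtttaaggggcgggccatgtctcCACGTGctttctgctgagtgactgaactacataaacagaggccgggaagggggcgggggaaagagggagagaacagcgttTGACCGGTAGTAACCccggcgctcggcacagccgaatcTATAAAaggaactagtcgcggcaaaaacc
Ch25h: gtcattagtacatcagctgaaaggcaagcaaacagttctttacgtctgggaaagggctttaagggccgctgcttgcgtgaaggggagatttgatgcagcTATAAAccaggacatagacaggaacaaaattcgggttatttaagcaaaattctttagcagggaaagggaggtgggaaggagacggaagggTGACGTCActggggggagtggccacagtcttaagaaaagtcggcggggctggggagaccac

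In all, 6 motifs were searched on both strands of all 32851 such RefSeq windows. The LXR response element (GGTNA and again GGTNA with 5 bases between them) occurred in 0.621% of windows. Abca1 was the only member whose window held it, as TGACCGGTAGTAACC on the opposite strand, 67 to 53 bases before the start site. The Abca1 window also held an E-box (CACGTG, 6.02% of windows) and a TATA box (TATAAA, 12.4% of windows). The cAMP response element (TGACGTCA, 1.55% of windows) was found among the members in Ch25h alone, 61 to 54 bases before the start, together with a TATA box. Apoe has 3 windows in RefSeq, of which the one shown held none of the 6 and another held a TATA box, the other searched motifs being the AP-1 site (TGANTCA, 6.75% of windows) and the interferon response element (GAAA and again GAAA with 2 bases between them, 2.98% of windows). A match says only that the letters are present.

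The question for each comparison was which of these genes differed between ATV:4D9 and the control antibody at each day, and between successive days. At day 1, 7 of the 10 members passed the threshold (limma-voom on sums per mouse, adjusted p below 0.05 over all genes tested): Ch25h, Lpl and Plin2 rose, and Abcg1, Apoe, Abca1 and Mylip fell. This share is close to the background, since 69.2% of all 14260 genes were called at day 1, 34.7% as higher and 34.6% as lower. At day 7 only Apoe was called, against 3.98% of all genes in either direction and 2.99% as higher. No member was called at day 14 (0.4% of genes) or at day 28 (0%). At day 28 limma-voom called no gene of any kind, edgeR called 0 and DESeq2 14, and 571 genes had an unadjusted p under 0.05. Between ATV:4D9 at day 7 and day 1, 8 members were called against 66.9% of all genes (33% as higher and 33.9% as lower), 5 as higher and 3 as lower. With counts scaled by the number of cells 1 member was higher and 6 were lower, beside 1274 genes higher and 7741 lower of all genes. Between days 14 and 7 (0.912% of genes) and between days 28 and 14 (0%) none was.

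**Figure D1:**
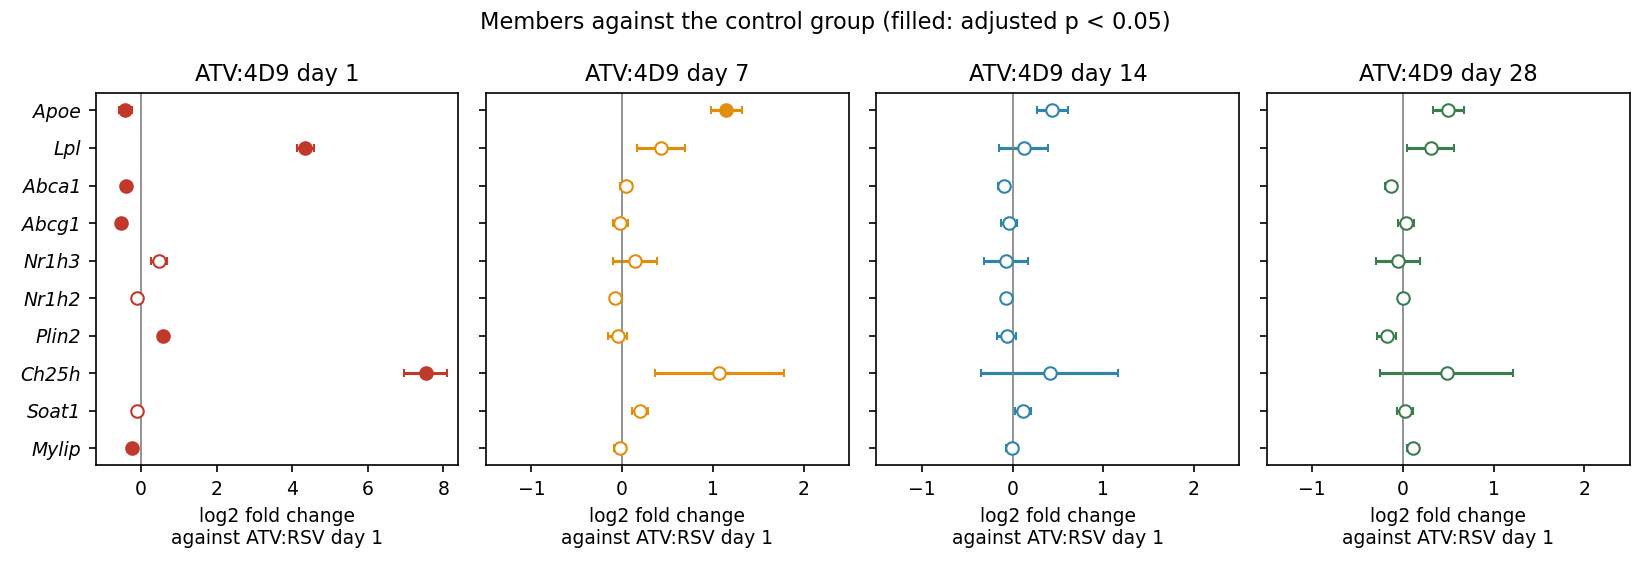
Log2 fold change of each of the 10 members against the 3 ATV:RSV mice at days 1, 7, 14 and 28 (limma-voom, 3 mice a group). Bars are 1 SE and filled points have an adjusted p below 0.05. Ch25h and Lpl stand far above the other members at day 1, and Apoe is the member that is called at day 7.

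Apoe, the main lipid carrier protein of the brain, had its highest level at day 7. In the ATV:RSV mice it stood at 503, 553 and 509 CPM. At ATV:4D9 day 1 it was 571, 340 and 304 CPM, and at day 7 it was 1167, 1106 and 1196.5 CPM. All 3 day 7 mice were above all other 12 mice, and the day 7 mice differed little among themselves. At day 14 Apoe was 622, 663 and 852 CPM and at day 28 it was 794, 639 and 786 CPM. Every mouse of these later groups was above every ATV:RSV mouse and below every day 7 mouse.

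At day 7 the Apoe level had gone from 521 ± 27.4 in the controls to 1156 ± 46.4 CPM (SD, n = 3), so it rose 2.22-fold (1.15 on the log2 scale with an SE of 0.17, adjusted p = 6.93e-04). Within the 3 batches, each of which held 1 mouse of every group, the difference was 1.21, 1.00 and 1.23 on the log2 scale. The log2 fold change stayed between 1.05 and 1.52 under all 19 alternatives run. At day 14 the mean was 712 ± 122 CPM (log2 fold change 0.44, adjusted p = 0.738) and at day 28 it was 740 ± 87.0 CPM (log2 fold change 0.50, adjusted p = 0.9998), so neither passed the threshold. The groups did not overlap with ATV:RSV at either day, but 5.29% of all genes had 3 day 14 mice above the 3 controls and 4.59% had this at day 28. Within batches the difference was 0.31, 0.26 and 0.74 at day 14 and 0.66, 0.21 and 0.63 at day 28.

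From day 7 to day 14 Apoe changed by -0.71 on the log2 scale (SE 0.17, adjusted p = 0.0778), and the groups did not overlap. The same step was called when only the 6 mice compared were fitted (adjusted p = 0.0224). From day 1 to day 7 of ATV:4D9 it rose by 1.57 (SE 0.17, adjusted p = 7.87e-07), and its lowest day 7 mouse was above its highest day 1 mouse.

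At day 1 the 3 ATV:4D9 mice went in different directions for Apoe. Replicate 1, at 571 CPM, was above all controls, and replicates 2 and 3 were below all of them. The fall was called by a narrow margin (405 ± 145 against 521 ± 27.4 CPM, log2 fold change -0.42, SE 0.17, adjusted p = 0.0432). Batch by batch, day 1 differed from ATV:RSV by 0.18, -0.70 and -0.74. Of 17 alternatives 13 ended the call. Over all 17 the adjusted p ran from 1.29e-04 to 0.797. The 13 included the fits without any 1 control mouse (adjusted p = 0.0631, 0.113 and 0.0695), without replicate 2 (-0.32, adjusted p = 0.165) and without replicate 3 (-0.24, adjusted p = 0.236) of ATV:4D9 day 1. Without replicate 1 the log2 fold change was -0.69 (adjusted p = 1.29e-04).

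**Figure D2:**
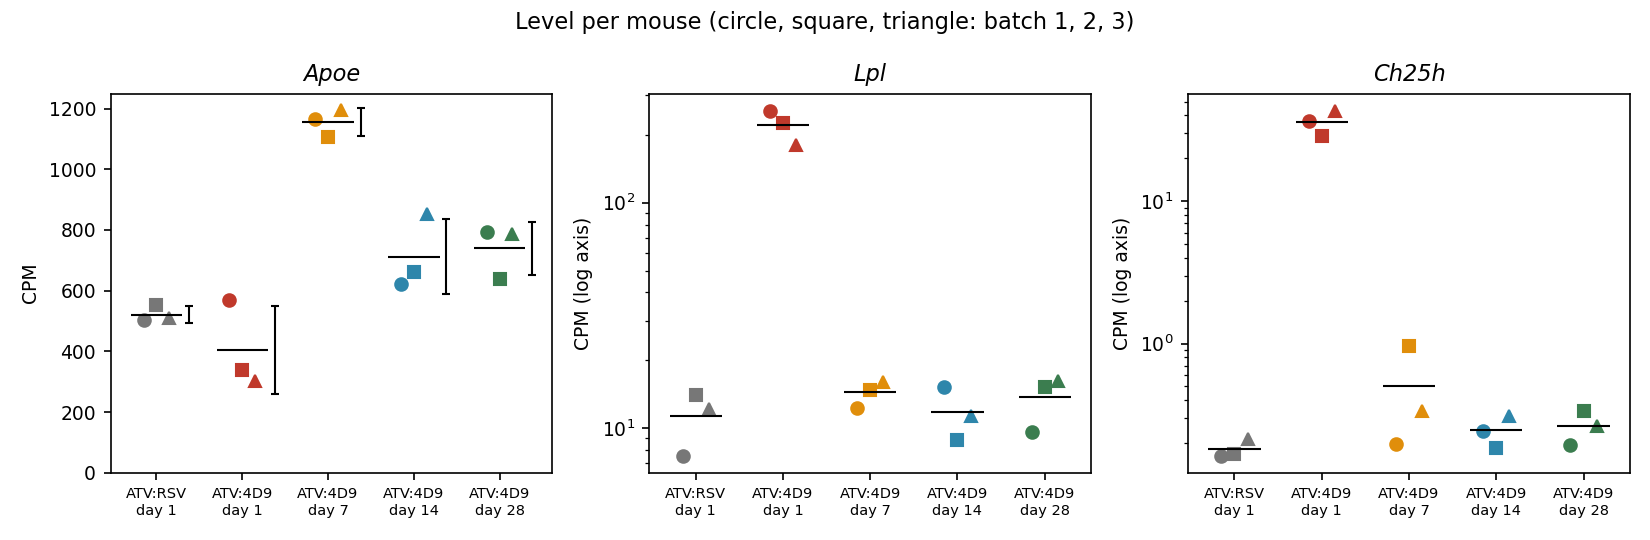
Level of Apoe, Lpl and Ch25h in CPM in every mouse, by group (points are mice, lines group means, error bars in the Apoe panel the SD of 3 mice, log axes for Lpl and Ch25h). Apoe is highest in the 3 day 7 mice, at 1106 to 1196.5 CPM, whereas Lpl and Ch25h are highest in the 3 ATV:4D9 day 1 mice.

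Cells were next compared one by one, after each was thinned at random to 3385 UMIs so that the depth of the day 1 cells did not set the counts. The 10204 cells with fewer UMIs were dropped, between 3.93% and 17.8% per mouse. Apoe was seen in 46.6%, 46.4% and 42.9% of thinned cells in the ATV:RSV mice and in 64.0%, 64.3% and 62.5% at day 7. The day 7 mice were again above all others. At ATV:4D9 day 1 the shares were 48.4%, 35.0% and 26.3%, the widest spread of any group. The mean shares were 53.6 ± 4.97% at day 14 and 51.7 ± 4.10% at day 28 (SD, n = 3). Over the 5 groups the shares differed (exact permutation of groups within batches, two-sided, p = 0.00222, 14400 arrangements). For 3 mice against 3 the smallest p possible is 0.1, which Apoe reached at days 7, 14 and 28. Without thinning the share was 54.6 ± 3.13% in ATV:RSV, 55.7 ± 13.9% at ATV:4D9 day 1 and 69.6 ± 2.17% at day 7 (exact permutation, p = 0.107).

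The level of free Apoe RNA in the droplets could not be read from cells that should lack the gene. The 114 thinned cells with at least 3 B cell markers held 58.4 UMIs of the microglia markers on average, against 62.9 in cells without markers of another type, and 45.6% of them had a UMI of Apoe against 49.6%. The median depth before thinning was 8364.5 and 6179 UMIs. These cells therefore gave no background share for any member.

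More cells held many Apoe UMIs at day 7. The share of thinned cells with at least 10 was 9.99 ± 1.03% at day 7 against 3.15 ± 0.560% in ATV:RSV (SD, n = 3), and the share with 3 to 9 was 24.7 ± 1.39% against 12.6 ± 0.831%. The share with 1 or 2 was almost the same, at 29.0 ± 0.903% and 29.6 ± 1.63%. With the cells of at least 10 UMIs set aside, the mean was still 1.84 ± 0.0763 Apoe UMIs per thinned cell at day 7 against 1.01 ± 0.0539 in ATV:RSV, and with them it was 3.70 ± 0.0999 against 1.68 ± 0.123. The cells of at least 10 held 55.3 ± 3.39% of the Apoe UMIs at day 7 and 42.0 ± 2.88% in ATV:RSV. These classes were set by the measured counts and are a description, and the part of free RNA in them was not tested. The 1% of cells with most Apoe held 16.7 ± 2.84% of its UMIs at day 7 and 18.8 ± 1.28% at day 14, against 25.5 ± 2.18% in ATV:RSV, 31.4 ± 6.89% at ATV:4D9 day 1 and 27.5 ± 2.01% at day 28. The day 28 mice, at 26.2% to 29.8%, were all above the day 14 mice, at 17.4% to 19.9%, although their mean Apoe per thinned cell was the same (2.32 ± 0.275 and 2.32 ± 0.479).

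**Figure D3:**
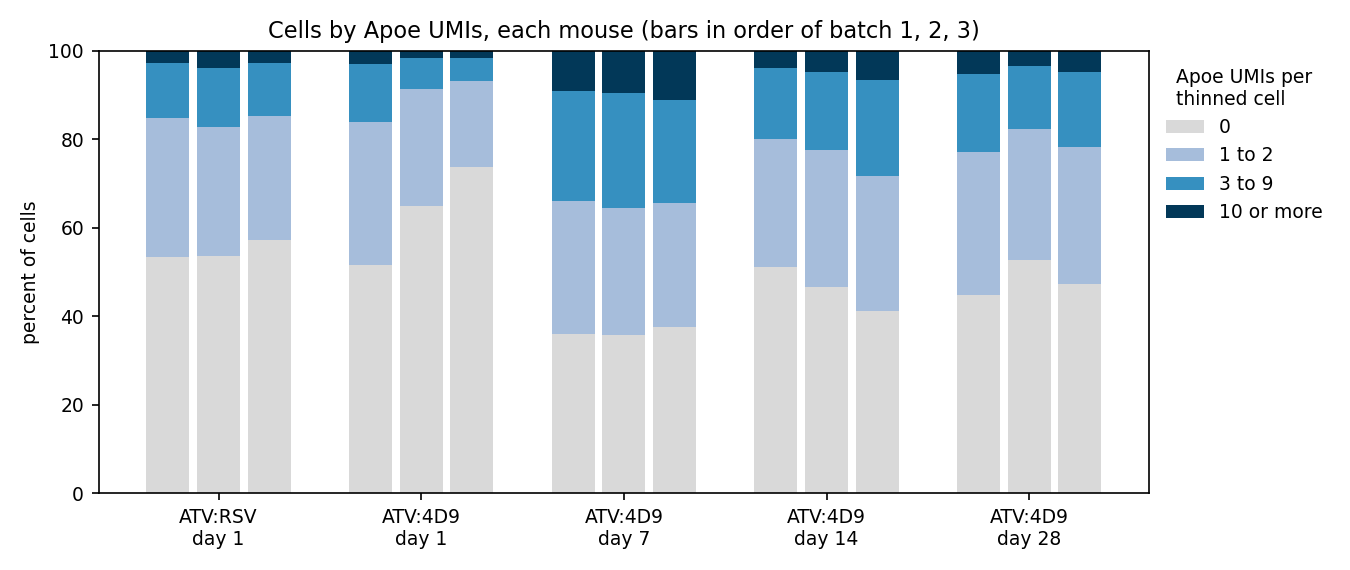
Percent of thinned cells with 0, 1 to 2, 3 to 9 and 10 or more Apoe UMIs, with a stacked bar for each mouse in order of batch. The class without Apoe is 36.4% of cells on average at day 7 against 54.7% in ATV:RSV, and the class of 10 or more is 9.99% against 3.15%.

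Cells with markers of border-associated macrophages made up a larger share of cells at ATV:4D9 day 1. They were 1.08 ± 0.207% of thinned cells at ATV:4D9 day 1, against 0.366 ± 0.0906% in ATV:RSV and 0.358 ± 0.116% at day 7. They held 13.8 ± 4.77% of the Apoe UMIs at ATV:4D9 day 1, against 3.05 ± 0.944% in ATV:RSV and 1.81 ± 0.672% at day 7. These cells were chosen by at least 3 of 7 markers at full depth, and day 1 cells were deeper. With the markers counted at the thinned depth, a setting chosen after seeing the data, they were 0.316 ± 0.112% of cells at ATV:4D9 day 1 and 0.0481 ± 0.0558% in ATV:RSV, and held 6.27 ± 3.13% and 0.560 ± 0.488% of the Apoe UMIs, again without overlap. These values rest on few cells: 22, 14 and 24 in the day 1 mice and 7, 0 and 2 in the controls. The summed level of the 7 markers was 19.8 to 29.7 CPM at ATV:4D9 day 1 and 16.2 to 19.5 CPM in ATV:RSV, and none of the 7 was at 0 in every mouse. Without all cells that carried markers of another type, Apoe had a log2 fold change of -0.57 at day 1 (adjusted p = 0.0128) and of 1.18 at day 7 (adjusted p = 0.00100). Astrocytes are another main source of Apoe in the brain. Their 6 markers summed to 6.43 to 12.9 CPM over all mice, and the part of astrocyte RNA in the Apoe level was not tested.

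The deposited cell table sorts the cells into 3 clusters, made by the authors from the same expression values, so levels by cluster are a description. They are given in CPM of the unscaled UMI total of a mouse's cells in that cluster. Cluster 0 held 48348 cells and cluster 1 held 33853, of which 1.95% and 3.24% came from ATV:4D9 day 1, and cluster 2 held 19842, of which 92.8% did. In cluster 0 Apoe was 554, 554 and 552 CPM in ATV:RSV and 1074, 1111 and 1137 CPM at day 7. In cluster 1 it was 396, 493 and 407 CPM in ATV:RSV and 1166, 1044 and 1147 CPM at day 7. In thinned cells the day 7 means were 3.32, 3.46 and 3.62 Apoe UMIs per cell in cluster 0 and 4.26, 3.83 and 3.79 in cluster 1. In ATV:RSV they were 1.71, 1.76 and 1.65 in cluster 0 and 1.30, 1.67 and 1.36 in cluster 1. Thinning dropped the clusters unevenly: in day 7 replicate 1 it kept 1512 of 2401 cells of cluster 1 and 3326 of 3478 of cluster 0. Fitted on the 12 mice outside ATV:4D9 day 1, Apoe rose at day 7 by 1.07 (log2) in cluster 0 (limma-voom adjusted p = 4.31e-05, 3.77% of 13198 genes called) and by 1.52 in cluster 1 (adjusted p = 1.87e-07, 4.98% of 12139 genes called). Whether the 2 increases differ was not tested.

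At day 14 Apoe was called within cluster 1 (log2 fold change 0.67, adjusted p = 0.00456, 1.01% of genes called), with 541, 637 and 798 CPM against 396, 493 and 407 CPM in ATV:RSV. In cluster 0 it was not called at day 14 (0.42, adjusted p = 0.170, 0.00758% of genes called), but with the replicate block it was (0.42, adjusted p = 0.0415), as it was with DESeq2 (0.43, adjusted p = 3.86e-04). At day 28 it was not called in cluster 0 (0.45, adjusted p = 0.811, 0% of genes called) or in cluster 1 (0.62, adjusted p = 0.200, 0% of genes called). DESeq2 called it in cluster 0 at day 28 (0.46, adjusted p = 0.00699). With limma-voom and TMM no other member was called within either cluster at days 7, 14 or 28. With library size scaling Abcg1 was called lower in cluster 1 at day 7 (-0.27, adjusted p = 0.0321), where 1960 of 12139 genes were called, 1647 of them lower. With the replicate block Soat1 was called in cluster 0 at day 7 (0.24, adjusted p = 0.0149), where 830 of 13198 genes were called.

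Cluster 2 contained 2 different kinds of Apoe level. Its ATV:4D9 day 1 cells had 505, 301 and 264 CPM. Its few cells from the other 12 mice, as few as 74 in a mouse, had 1287 to 3999 CPM, with a mean of 2298 ± 843 (SD, n = 12). Over all clusters, 15 to 30 thinned cells in each of these mice carried markers of border-associated macrophages. How many of those lay in cluster 2 was not counted, and their part in these levels was not tested. The lowest of these 12 mice was above the highest day 1 mouse. These few cells also had more Plin2 (54.7 ± 12.6 CPM against 29.1 ± 2.41) and more Abcg1 (109 ± 12.9 against 44.4 ± 2.49) than the day 1 cells of the same cluster. The same held for Abca1 (211 ± 25.8 against 128 ± 8.96), Soat1 (74.3 ± 11.4 against 46.3 ± 4.81) and Mylip (350 ± 39.9 against 263 ± 13.6). Their Ch25h was lower (5.49 ± 3.55 against 33.8 ± 5.97), and their Lpl was 212 ± 124 CPM against 207 ± 41.9. In clusters 0 and 1 the same 12 mice had 184 ± 12.1 and 203 ± 16.0 CPM of Abca1. Soat1 was 54.9 ± 4.82 and 73.2 ± 4.18, and Mylip 401 ± 33.8 and 290 ± 19.8. Plin2 was 20.6 ± 2.15 and 19.6 ± 2.16, and Abcg1 71.3 ± 7.08 and 82.4 ± 7.90. The few cells were thus close to cluster 1 in Abca1 and Soat1, and between clusters 0 and 1 in Mylip.

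**Figure D4:**
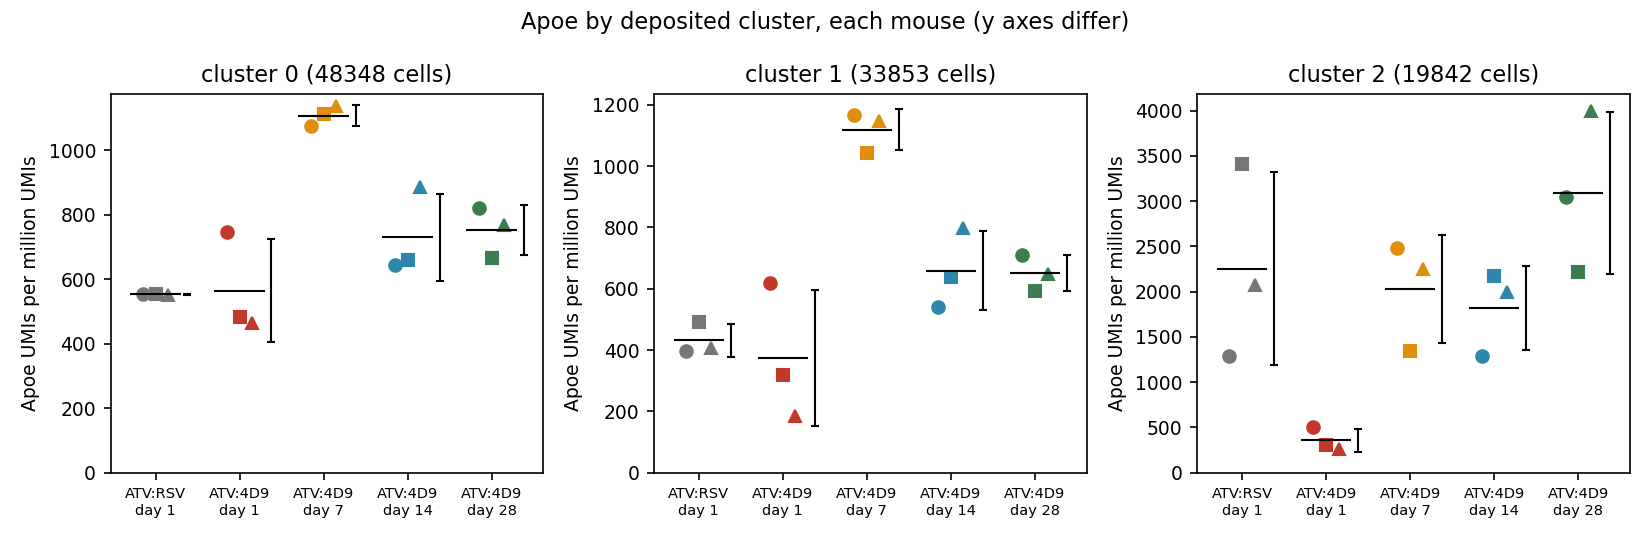
Apoe in CPM per mouse and group within each of the 3 deposited clusters (points are mice, lines and error bars the mean and SD of 3 mice, with a different vertical axis for each cluster). Clusters 0 and 1 show the day 7 rise to 1044 to 1166 CPM, and in cluster 2 the ATV:4D9 day 1 mice lie at 264 to 505 CPM below all others, at 1287 to 3999 CPM.

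With all mice and TMM scaling neither LXR gene was called at any day, but at day 1 both depended on the scaling and on single mice. Nr1h2 (LXRβ) was 34.6, 37.5 and 38.8 CPM in ATV:RSV and 34.6, 34.1 and 34.7 CPM at ATV:4D9 day 1, and the groups overlapped (log2 fold change -0.10, SE 0.047, adjusted p = 0.0753). Nr1h2 was called lower at day 1 with library size scaling (-0.34, adjusted p = 1.60e-05) and higher per cell (0.26, adjusted p = 0.00853). With TMM it was called lower without replicate 1 of ATV:RSV (-0.15, adjusted p = 0.0126). Its group means ranged from 34.5 to 37.0 CPM over all 5 groups. Nr1h3 (LXRα) was captured with only 17 to 63 UMIs per mouse. It was 0.511, 0.772 and 0.668 CPM in ATV:RSV and 0.990, 0.768 and 0.941 CPM at ATV:4D9 day 1 (log2 fold change 0.48, SE 0.22, adjusted p = 0.0622), and replicate 2 of day 1 lay within the controls. Per cell it was called higher (0.83, adjusted p = 0.00532). With TMM it was called without replicate 2 of ATV:RSV (0.61) or of ATV:4D9 day 1 (0.60). Nr1h3 overlaps the gene model Gm13783 on the same strand, which had 9 to 22 UMIs per mouse, so its few counts are uncertain.

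Both cholesterol exporters were lower at day 1 and were not called afterwards. Abca1, which moves cholesterol and phospholipid to lipid-poor apolipoproteins, was 194, 200.5 and 179 CPM in ATV:RSV and 156, 135 and 144 CPM at ATV:4D9 day 1. Abcg1, which passes cholesterol on to particles that already hold lipid, was 67.4, 79.7 and 73.9 CPM in ATV:RSV and 51.5, 52.8 and 48.4 CPM at day 1. For both genes the highest day 1 mouse was below the lowest control. On the log2 scale the change was -0.40 for Abca1 (SE 0.064, adjusted p = 4.46e-05) and -0.53 for Abcg1 (SE 0.085, adjusted p = 4.51e-05), and both were called. By day 7 Abca1 was 211, 199.9 and 180 CPM and Abcg1 was 67.2, 79.1 and 71.9 CPM. Both then overlapped the controls, and at day 28 their means were 175 ± 7.13 and 75.4 ± 6.49 CPM (SD, n = 3). Abca1 at day 28 was -0.13 from ATV:RSV (adjusted p = 0.9998). A UMI of Abca1 was found in 43.6 ± 0.651% of thinned cells at day 14, below all controls (47.4 ± 1.97%), and in 44.2 ± 1.44% at day 28, which overlapped them. How many of all genes had a share below all controls at day 14 was not counted. From day 1 to day 7 Abca1 rose by 0.44 (adjusted p = 1.79e-05) and Abcg1 by 0.51 (adjusted p = 7.35e-05), but per cell these were -0.024 (adjusted p = 0.831) and 0.047 (adjusted p = 0.697).

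Mylip, an LXR target whose product tags the LDL receptor for degradation, was also lower at day 1. It was 371, 353 and 332 CPM in ATV:RSV and 301, 312 and 288 CPM at ATV:4D9 day 1, without overlap (log2 fold change -0.23, SE 0.066, adjusted p = 0.00604). It was 345 ± 13.4 CPM at day 7 and 380 ± 15.5 CPM at day 28, where it was 0.11 above ATV:RSV (adjusted p = 0.9998).

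Lpl, the lipase that frees fatty acids from lipoprotein triglyceride, was far higher at day 1 than at any other time. It was 7.54, 14.1 and 12.1 CPM in ATV:RSV and 256, 225 and 181 CPM at ATV:4D9 day 1. This rise was 20.4-fold (4.35 on the log2 scale, SE 0.23, adjusted p = 1.09e-10). By day 7 it was 12.3, 14.8 and 16.1 CPM, which overlapped the controls (log2 fold change 0.43, adjusted p = 0.461), and the fall from day 1 was -3.92 on the log2 scale (adjusted p = 2.74e-10). The group means at days 14 and 28 were 11.8 ± 3.23 and 13.7 ± 3.58 CPM. At day 7, 2 of the 3 mice were above the highest control, and within batches the log2 differences were 0.70, 0.07 and 0.40. The highest Apoe level came at day 7, when Lpl was no longer called.

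Per cell, Lpl was seen in 34.6%, 34.2% and 28.3% of thinned cells at ATV:4D9 day 1 against 1.92%, 2.17% and 2.55% in ATV:RSV (exact permutation of groups within batches over the 5 groups, p = 0.00493). Without thinning the shares ran from 45.3% to 53.9% and from 3.39% to 4.39%. In ATV:RSV the 1% of cells with most Lpl held 63.7 ± 3.58% of its UMIs, and at ATV:4D9 day 1 they held 12.6 ± 1.13%. A UMI of Lpl was thus found in far more cells at day 1. At day 7 the thinned share was 3.17 ± 0.626%, above all controls (2.21 ± 0.319%), but after thinning to 1692 UMIs per cell (1.57 ± 0.244% against 1.31 ± 0.242%) the groups overlapped. In ATV:RSV the cells with a UMI of Lpl had 5.75 ± 0.631 Apoe UMIs per thinned cell against 1.59 ± 0.114 in the others, a ratio of 3.61 ± 0.225. At ATV:4D9 day 1 this ratio was 1.13 ± 0.211, at day 7 1.37 ± 0.358, at day 14 1.79 ± 0.528 and at day 28 3.21 ± 0.768. The lowest control ratio, 3.35, was above all mice of days 1, 7 and 14, and the day 28 mice ranged from 2.37 to 3.88.

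In cluster 2 Lpl was 163 to 246 CPM at ATV:4D9 day 1 and 62.4 to 480 CPM in the few cells of the other 12 mice. In cluster 0 the 12 mice outside ATV:4D9 day 1 had 9.19 ± 1.92 CPM and in cluster 1 they had 7.63 ± 1.83 CPM (SD, n = 12). Among the few day 1 cells that fell in these clusters, Lpl was 24.3 ± 4.72 and 29.4 ± 13.7 CPM (SD, n = 3).

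Plin2, which coats lipid droplets, was 23.8, 20.3 and 20.5 CPM in ATV:RSV and 34.5, 29.2 and 33.0 CPM at ATV:4D9 day 1. All day 1 mice were above all controls, and Plin2 rose 1.49-fold (0.58 on the log2 scale, SE 0.098, adjusted p = 7.90e-05). It was 20.9 ± 0.461 CPM at day 7, and its fall from day 1 was -0.63 (adjusted p = 4.74e-05). Soat1, the enzyme that turns cholesterol into its storage ester, was 58.0, 53.2 and 55.7 CPM in ATV:RSV and 57.6, 51.1 and 47.7 CPM at day 1, with overlap (log2 fold change -0.10, adjusted p = 0.330). At day 7 it was 72.7, 60.1 and 59.4 CPM, above all controls (log2 fold change 0.19, SE 0.087, adjusted p = 0.273). How many of all genes were above all controls at day 7 was not counted. With the replicate block this difference was called (0.20, adjusted p = 0.0264), where 1014 of 14260 genes were, but under the other 18 alternatives it was not. In each batch the day 7 mouse was the higher, by 0.33, 0.17 and 0.09 on the log2 scale. Per 1000 cells day 7 overlapped ATV:RSV (387 ± 43.2 against 363 ± 39.9 UMIs), as it did in the share of thinned cells (18.6 ± 1.33% against 17.6 ± 0.911%). From day 1 to day 7 Soat1 rose by 0.29 (adjusted p = 0.00720), a call that was lost without replicate 1 of day 7. Per cell the difference turned to -0.17 (adjusted p = 0.232).

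Ch25h, whose product converts cholesterol into the oxysterol 25-hydroxycholesterol, was near absent outside day 1. Its counts were 8, 7 and 9 UMIs in the ATV:RSV mice and 2313, 1761 and 2015 UMIs at ATV:4D9 day 1, that is 0.164, 0.169 and 0.215 CPM against 36.3, 28.8 and 43.1 CPM. The fitted rise was 184.6-fold (7.53 on the log2 scale, SE 0.56, adjusted p = 7.18e-09). At day 7 the counts were 7, 31 and 17 UMIs, at day 14 12, 7 and 14, and at day 28 10, 16 and 13. Replicate 2 of day 7 was the highest of these 12 mice, at 0.964 CPM (day 7 log2 fold change 1.07, SE 0.71, adjusted p = 0.496).

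A UMI of Ch25h was found in 4.26%, 3.72% and 5.54% of thinned cells at ATV:4D9 day 1, against 0.0468%, 0.0537% and 0.0524% in ATV:RSV, which is 3 cells in each control mouse (exact permutation of groups within batches over the 5 groups, p = 0.0236). Without thinning the means were 7.66 ± 1.11% and 0.0936 ± 0.0302%, so the share moved with depth and does not give the share of cells that express the gene. Lpl was found in 54.1 ± 4.00% of the day 1 cells with Ch25h and in 31.3 ± 3.74% of those without it. The gene Gm26902, which overlaps Ch25h on the opposite strand, had 30 to 51 UMIs at ATV:4D9 day 1 and 0 to 5 in the other 12 mice.

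The direction of several day 1 values depended on whether levels were set relative to all UMIs or per cell. The day 1 cells held more UMIs, and over all genes the log2 fold changes had a median of -0.05 with TMM scaling, -0.29 with library size alone and 0.32 when counts were scaled by the number of cells. Of all genes, 34.7% were called higher and 34.6% lower with TMM, 25.9% and 48.8% with library size, and 49.3% and 13.4% per cell. Per 1000 cells, Apoe was 3436 ± 1462 UMIs at ATV:4D9 day 1 and 3388 ± 108 in ATV:RSV. Abca1 was 1215 ± 155 against 1244 ± 96.9, Mylip was 2512 ± 239 against 2292 ± 251, and Soat1 was 437 ± 72.3 against 363 ± 39.9 UMIs. These 4 genes overlapped between the groups. Abcg1 was still lower in all day 1 mice (426 ± 43.4 against 478 ± 8.11), although its call was lost. Nr1h2 was higher (270.1 to 309.6 against 228.9 to 250.8), as was Nr1h3 (7.53 ± 1.24 against 4.20 ± 0.584). Plin2 (270 ± 34.3 against 141 ± 22.3), Lpl (1860 ± 440 against 72.3 ± 17.5) and Ch25h (300.2 ± 52.6 against 1.19 ± 0.183) were higher on both scales. The calls of lower Abca1, Abcg1 and Mylip at day 1 thus held relative to the other RNA of the cells and were lost per cell. The call of lower Apoe was lost per cell and in most other settings too, 13 of 17 in all.

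**Figure D5:**
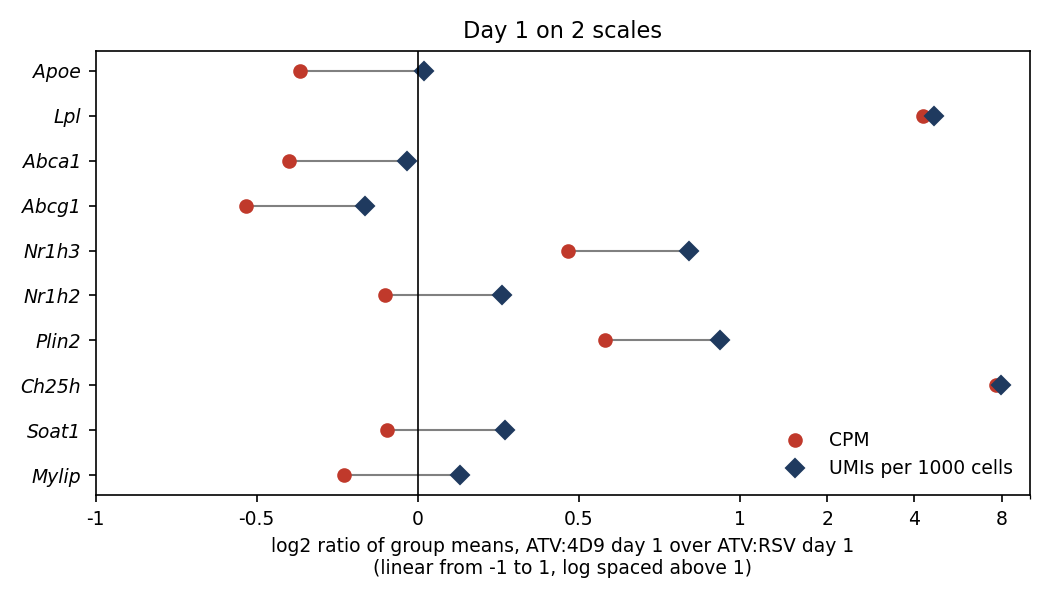
Log2 ratio of the mean of ATV:4D9 day 1 to that of ATV:RSV for each member, in CPM (circles) and in UMIs per 1000 cells (diamonds), with an axis that is linear from -1 to 1 and log spaced above. Lpl, Ch25h and Plin2 are higher on both scales, whereas Abca1 and Mylip are lower on the first scale and near no difference on the second.

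In thinned cells, where depth is equal, the share of cells with a UMI at ATV:4D9 day 1 against ATV:RSV was 34.3 ± 2.02% against 47.4 ± 1.97% for Abca1 (exact permutation of groups within batches, p = 0.00569). It was 13.7 ± 0.688% against 22.3 ± 1.27% for Abcg1 (exact permutation, p = 0.00604) and 54.5 ± 2.62% against 65.7 ± 2.05% for Mylip (exact permutation, p = 0.00694). The share was lower in every day 1 mouse than in every control for all 3 genes, and it was also lower for Soat1 (13.9 ± 1.58% against 17.6 ± 0.911%, exact permutation, p = 0.0193) and Nr1h2 (9.93 ± 0.386% against 12.4 ± 1.18%, exact permutation, p = 0.00757). For Plin2 the share was 8.72 ± 0.937% against 7.19 ± 0.784% (exact permutation, p = 0.00646), with overlap. For Nr1h3 it was 0.206 ± 0.0177% against 0.211 ± 0.0395% (exact permutation, p = 0.127), at 1 UMI per cell. Each p covers the 5 groups together and was not adjusted over the genes. How many of all genes lacked overlap in these shares at day 1 was not computed. In the sums per mouse 69.2% of all genes were called at day 1 with TMM scaling. A thinned share is relative to all UMIs of the cell, without TMM scaling, so it is nearer to library size scaling. With that scaling 25.9% of all genes were called higher and 48.8% lower at day 1, and the median log2 fold change was -0.29. Soat1 and Nr1h2 were not called at day 1 with all mice and TMM scaling. Without thinning the means at day 1 and in ATV:RSV were 60.2% and 62.8% for Abca1, 30.7% and 34.5% for Abcg1, 78.8% and 76.7% for Mylip, 32.3% and 28.2% for Soat1, 24.3% and 20.7% for Nr1h2, 19.8% and 12.4% for Plin2 and 0.737% and 0.415% for Nr1h3.

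Other values also set the day 1 mice apart. The summed level of 12 immediate early genes, known to be induced by tissue dissociation, was 15818 to 18189 CPM at ATV:4D9 day 1 against 24427 to 26726 CPM in ATV:RSV. The 5 monocyte markers summed to 15.8 to 19.9 CPM against 4.25 to 10.9 CPM, with no marker at 0 in every mouse, and the 5 T and NK cell markers to 0.361 to 0.898 against 0.0716 to 0.348 CPM. Only 1 of the 5 T and NK cell markers passed the filter on low counts. Cells with at least 3 monocyte markers numbered 0, 0 and 1 in the day 1 mice and 1, 0 and 0 in the controls. Those with at least 3 T and NK cell markers numbered 0, 2 and 1 in the day 1 mice and 0 in each control. Markers of oligodendrocytes (31.3 to 35.3 against 44.0 to 58.0 CPM), neurons (5.06 to 7.12 CPM, below all controls) and endothelial cells (10.1 to 15.6 against 19.1 to 26.0 CPM) summed lower. At day 7, where Apoe rose, the neuron (6.52 to 7.62 CPM) and endothelial (14.3 to 16.4 CPM) markers were also below all controls, as were those of astrocytes (6.43 to 7.99 against 9.43 to 11.7 CPM) and of border-associated macrophages (14.9 to 15.9 against 16.2 to 19.5 CPM). At day 28 the endothelial (17.6 to 18.8 CPM) and border-associated macrophage (13.2 to 15.8 CPM) markers were below all controls. The 5 neutrophil markers summed to 158 CPM in replicate 3 of day 7, the mouse with the most Apoe, and to 3.48 and 7.21 CPM in the other day 7 mice. Without that mouse the day 7 log2 fold change of Apoe was 1.12 (adjusted p = 0.00553). The immediate early genes were above all controls at day 14 (27035 to 28804 CPM) and at day 28 (26968 to 27967 CPM). The part of these in the values of the members was not tested.

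Of 87 further genes of lipid handling, 73 passed the filter on low counts. At day 1, 25 rose, 26 fell and 22 were not called, where 34.7% of all genes were called higher and 34.6% lower, with a median log2 fold change of -0.01 beside -0.05 for all genes. Per cell 37 were higher and 13 lower (49.3% and 13.4% of all genes), and with library size 19 were higher and 32 lower (25.9% and 48.8%). Among 17 genes of lipid uptake, 8 rose and 2 fell, with a median of 0.79. The fatty acid receptor Cd36 rose from 0.450 ± 0.127 to 3.24 ± 0.0612 CPM (log2 fold change 2.86) and the fatty acid binding protein gene Fabp3 from 1.20 ± 0.433 to 5.69 ± 0.578 CPM (2.32). The sorting receptor Sorl1 fell by 0.77 and the lipoprotein receptor Apobr by 0.32, although Apobr was 0.04 higher per cell (adjusted p = 0.686).

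Among 12 partners, coregulators and other targets of the LXRs, 2 rose and 6 fell at day 1, with a median of -0.34, beside 34.7% and 34.6% of all genes. With library size 1 was higher and 8 were lower, beside 25.9% and 48.8% of all genes. Per cell 4 were higher and 4 lower with a median of 0.02, beside 49.3% and 13.4% of all genes. Rxra, a partner of the LXRs, fell from 23.4 ± 0.817 to 10.1 ± 0.339 CPM (-1.21), and the coactivator Ncoa1 fell by 0.84. Srebf1, which drives fatty acid synthesis, rose by 0.60. Of 16 genes of cholesterol transport and oxysterol enzymes, 4 rose and 9 fell with TMM (median -0.20), again beside 34.7% and 34.6% of all genes. Per cell 7 were higher and 2 lower (median 0.16), shares close to the 49.3% and 13.4% of all genes, whose median was 0.32. Stard4, a carrier of cholesterol between membranes, rose from 1.44 ± 0.200 to 6.36 ± 0.962 CPM (2.12), and Tspo, a cholesterol-binding protein of the outer mitochondrial membrane, rose from 96.4 ± 6.29 to 305 ± 38.2 CPM (1.66). Cyp27a1, a sterol hydroxylase, fell from 15.9 ± 0.546 to 4.49 ± 0.282 CPM (-1.83), and the transporter Abca9 from 160 ± 14.8 to 60.8 ± 3.13 CPM (-1.40).

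Of 21 lipid droplet and triglyceride genes, 8 rose and 8 fell at day 1, beside 34.7% and 34.6% of all genes. Their median was -0.05 beside -0.05 for all genes. With library size 5 were higher and 10 lower (median -0.29), where 25.9% and 48.8% of all genes were. Per cell 11 were higher and 5 lower (median 0.31), where 49.3% and 13.4% of all genes were. Soat2, which like Soat1 esterifies cholesterol, rose by 1.35 and the droplet coat gene Plin3 by 0.73, whereas Hsd17b11 fell by 1.07 and the monoacylglycerol lipase Mgll by 0.97. Of 7 genes that regulate LPL, 3 rose and 1 fell with TMM (median 0.20), beside 34.7% and 34.6% of all genes. With library size 2 were higher and 2 lower (median -0.04), beside 25.9% and 48.8%. Per cell 5 were higher and 1 lower (median 0.57), beside 49.3% and 13.4%. Lmf2 rose by 0.42 and the chaperone adaptor Sel1l by 0.29. Sel1l was not called with library size scaling (0.05, adjusted p = 0.422). At day 7, 4 of the 73 were called, where 3.98% of all genes were, and the median of all 73 was 0.01. With library size 2 were higher and 6 lower, beside 2.22% and 6.19% of all genes. Per cell 0 were higher and 2 lower, beside 1.12% and 1.04% of all genes. Fabp5 rose from 3.76 ± 0.567 to 6.41 ± 0.637 CPM (0.78), Npc2, which carries cholesterol out of the lysosome, from 720 ± 18.7 to 855 ± 10.7 CPM (0.25) and the protease gene Furin by 0.25, while Mgll fell by 0.32. Per cell, Fabp5, Npc2 and Furin were not called at day 7, and Furin was not called with library size (0.16, adjusted p = 0.0939). None of the 73 was called at day 14 or day 28.

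Genes with the most similar course over the 15 mice were found by Pearson's r of log2 CPM among all genes tested. The mice share their libraries and groups, so r is a description. For Apoe these were Lag3 (r = 0.940), Cd22 (0.922) and Gm13391 (0.910). For Lpl they were Pgm1 (0.993), Vars (0.991) and Kars (0.990), and for Ch25h Pgd (0.995), Sulf2 (0.993) and Fasn (0.992). For Plin2 they were Atp6v1d (0.971), Hspa8 (0.968) and Cnih4 (0.965), for Abca1 Itpr2 (0.941), Fam234a (0.937) and Sparc (0.937), and for Abcg1 Lrsam1 (0.974), Tln2 (0.972) and Kif21b (0.970). The likeness was lower for Soat1 (Ptpn18, 0.909), Mylip (Arl4d, 0.898), Nr1h2 (Cacnb4, 0.882) and Nr1h3 (P2ry2, 0.874).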

How the data were processed

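Per the labels, CD45 bead-enriched cells of 15 mice were sequenced with a 3′ UMI kit. The authors mapped reads to mm10 with Cell Ranger (version 4.0.0 in the submitters' processing notes) and filtered and clustered cells in Seurat. The deposited matrix holds raw UMI counts per gene and cell, and the deposited cell table holds the mouse, UMI counts, percent of mitochondrial UMIs and cluster of each cell. The filters on cells were not given in the sources used here. No doublet caller was run here, and cells with markers of another type and the 5% of cells with most UMIs were left out as alternatives.

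Counts were summed per mouse and fitted with limma-voom in R 4.3.3 (edgeR 4.0.16 and limma 3.58.1) on group means of all 15 mice, with TMM scaling and filterByExpr (minimum count 10, total 15). Genes with a Benjamini-Hochberg adjusted p below 0.05 over all 14260 genes were called. Cluster fits used clusters 0 and 1 of 12 mice. Shares of cells were computed on cells thinned to 3385 UMIs and compared by exact two-sided permutation. Depth was 32341960 to 70307384 UMIs per mouse. Intervals of counting error are not given, since errors are the SD between mice.

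Each mouse is a separate animal. Among the mice analysed, each batch held 1 of every group per the labels, so batch numbers pair the mice. The labels mention a further control animal in the third batch, which was not analysed here. Deviations of mice of the same batch had a mean r of 0.0358 over 30 pairs (-0.269 to 0.272), against -0.0176 over 60 pairs of different batches. Deviations were taken from the group mean, which ties the second value to the first, so it is no separate baseline. With the replicate block 1014 genes were called at day 7, against 568 without it.

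The 10 genes and the lists were chosen with earlier results of these data known. All 10 were described. From each list, the 2 highest and 2 lowest called genes with no overlap and 10 or more UMIs in all 6 mice were named at days 1 and 7, and up to 2 at days 14 and 28. Of the genes this rule names, 2 are not reported here. Alternatives were edgeR, DESeq2 1.42.0, other scalings, no count filter, a replicate block, the 6 mice compared alone, each mouse left out, cell filters and thinning. Scaling by the number of cells and alternatives within clusters were chosen after seeing the data. Scripts were tested on simulated data. Promoter sequences came from RefSeq GRCm38.p6.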

Additional observations from a re-analysis of the deposited data

Results flagged for a closer look

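For 8 of the 10 genes the effect of ATV:4D9 against the shared ATV:RSV mice differed between day 7 and day 1, by the limma-voom test of the difference itself. The difference, day 7 minus day 1 on the log2 scale, was 1.57 for Apoe, 0.51 for Abcg1, 0.44 for Abca1, 0.29 for Soat1 and 0.20 for Mylip. Per cell it turned to -0.024 for Abca1, -0.17 for Soat1 and -0.26 for Mylip. It was -6.46 for Ch25h, -3.92 for Lpl and -0.63 for Plin2. Of all genes tested, 66.9% differed in this way. For Apoe the day 7 level was above the controls in 3 of 3 mice and the day 1 level in 1 of 3. No test for a mouse that stands apart was run on these groups of 3.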

How the results depend on the processing

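Of 1242 refits of single members, 1203 stayed on the same side of the threshold, 20 lost a call and 13 gained one. The other 6 reversed, that is, the sign changed and at least 1 of the 2 fits had a call. Among the 1203, 82 values that were called in neither fit changed sign. All 6 reversals came from scaling by the number of cells: at day 1 Nr1h2 was 0.26 and Mylip 0.13, and from day 1 to day 7 Abca1 was -0.024, Nr1h2 -0.45, Soat1 -0.17 and Mylip -0.26. Per cell 5 members were called at day 1, all higher: the calls of Ch25h, Lpl and Plin2 stayed, those of Nr1h2 and Nr1h3 were gained and the lower ones were lost. With library size 9 were called, 3 higher and 6 lower, and the day 1 call of Apoe was lost in 13 of 17 alternatives. At day 7, 2 members were called in place of 1 with library size (Nr1h2 joined Apoe) and with the replicate block (Soat1 joined Apoe). Of all 14260 genes, 1199 were called with library size (882 of them lower) and 1014 with the block, against 568 with TMM. The block, which the batches pair, changed no other call of a member in whole-mouse fits. At day 14, 1 was called in place of 0 in cluster 1. From day 7 to day 14 it was 1 in place of 0, Apoe, with the 6 mice alone and after thinning. Within clusters 3 calls became 5 with DESeq2 (Apoe in cluster 0 at days 14 and 28) and 5 with the block (Soat1 at day 7 and Apoe at day 14, both in cluster 0), and library size added Abcg1 in cluster 1 at day 7. The share of cells had an exact p under 0.05 for 9 members, and for 5 without thinning. Leaving out each mouse in turn gave 6 to 7 calls at day 1, 1 to 1 at day 7, 7 to 8 from day 1 to day 7, 3 within clusters and 0 in each other comparison. From day 1 to day 7 the call of Mylip was lost without ATV:4D9 day 1 replicate 3 and without day 7 replicate 2, and that of Soat1 without day 7 replicate 1. Between days 28 and 14 limma-voom called 0 genes of any kind, with 338 at an unadjusted p under 0.05, edgeR called 0 and DESeq2 70. At 17 to 37 UMIs of Nr1h3 and 7 to 31 UMIs of Ch25h per mouse outside ATV:4D9 day 1, depth limits what can be seen for these genes.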
